A study of Bos taurus with 33 samples.

Results

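The genes described here are the nuclear genes of respiratory complexes III, IV and V in bovine oocytes and in the cumulus cells (CC) around them. The rule took every gene whose symbol begins with UQCR, with ATP5 or with COX and a digit, leaving out the mitochondrially encoded COX1, COX2 and COX3. This gave 51 of the 17543 genes listed for oocytes or CC, of which 8 belong to complex III, 25 to complex IV and 18 to complex V. COX7C stood on 3 Ensembl identifiers and ATP5E on 2, so that the 51 genes carried 48 symbols.

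Complex III takes electrons from ubiquinol and hands them to cytochrome c, and complex IV (cytochrome c oxidase) hands them on to oxygen. Both build the proton gradient across the inner mitochondrial membrane that complex V (ATP synthase) uses to make ATP. Mitochondrial DNA encodes CYTB of complex III, COX1, COX2 and COX3 of complex IV, and ATP6 and ATP8 of complex V. The other subunits and the factors that assemble them come from nuclear genes and are imported. The oocyte relies on pyruvate supplied by the CC for this oxidative route, and its mitochondria are passed on to the embryo.

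Oocytes and CC were taken from the preovulatory follicle of crossbred Hereford-Angus beef cows aged 4 to 13 years, all of which had been given GnRH on day -9 and prostaglandin F2 alpha on day -2. Cows of the small class (largest follicle of at most 11.7 mm) and of the large class (at least 12.7 mm) had shown no estrus and had a further GnRH injection on day 0. Cows of the spontaneous class (11.7 to 14 mm) came into estrus, had no further injection and released their own gonadotropin surge. The labels give the collection as 20 h in one place and 23 h in another after GnRH or estrus, and each library was made from 4 oocytes, or from the CC of 4 complexes, of 1 class. There were 6 small, 6 large and 4 spontaneous oocyte pools and 6, 6 and 5 CC pools, so in comparisons with spontaneous pools the class, estrus and the source of the surge moved together and cannot be told apart. Small and large pools shared the lack of estrus and the GnRH injection.

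Abundance is given as CPM, the reads of a gene in every 1000000 reads on genes, with 7664375 to 17934916 reads on genes in an oocyte pool and 1911600 to 5772431 in a CC pool. At that depth 3 reads, the upper limit that a count of 0 allows, were worth between 0.167 and 0.391 CPM for oocytes and between 0.520 and 1.57 CPM for CC, for counting error only. The 10 oocyte markers had sums of 9091 to 13318 CPM in oocytes, and the 5 of them listed for CC (GDF9, ZP2, ZP3, NLRP5 and ZAR1) had sums of 0 to 6.76 CPM there. The 10 cumulus markers had sums of 10541 to 32742 CPM in CC and of 544 to 3991 CPM in oocytes. By this sum the median oocyte pool held 6.52% of the CC median. VCAN had the largest medians of these markers, 15808 CPM in CC and 863 CPM in oocytes. HAS2, CD44 and GREM1 went the other way, with medians of 186, 20.1 and 5.18 CPM in oocytes and 50.5, 4.31 and 1.14 CPM in CC. Small oocyte replicate 3 stood apart with 5.0% of its reads on the 13 mitochondrially encoded genes, against 0.846 to 2.68% in the other oocyte pools. It also had the highest sum of cumulus markers (3991 CPM), but other oocyte pools reached 3731 CPM. In CC pools those 13 genes took 12.6 to 44.0% of reads, a share that enters every CPM value there. Because CPM are shares, fewer cells of a type and less RNA per cell cannot be told apart.

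Of the 51 genes, 46 passed the filter in oocytes (4 or more pools with 5 CPM or more) and 46 in CC (5 or more pools), with 45 passing in both. COX8B passed in CC but not in oocytes, and COX18 in oocytes but not in CC. COX6B2, ATP5SL and a pair of the COX7C genes (ENSBTAG00000039440 and ENSBTAG00000040564) passed in neither. All the transcripts of complexes III to V together came to between 1703 and 3599 CPM in oocytes, which was 0.170 to 0.360% of reads, and to between 4364 and 7287 CPM in CC. Highly similar gene copies, such as those of COX7C and ATP5E, can share reads, and how the counting divided them is not given in the sources used here.

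The oocyte and CC values were scaled separately and come from different tissues, so they are set side by side with no test. Most of the genes stood at higher CPM in CC: of the 47 that passed the filter in at least 1 cell type, 41 had the higher median in CC, and the median ratio of CC to oocyte CPM was 3.15, against 0.906 over the 10280 genes that passed and had a median above 0 in both. In 15 of the 47 every CC pool lay above every oocyte pool, while this held for 13.4% of all 11431 genes. Among genes that passed in both cell types it held for 14 of 45, beside 12.7% of all such genes. With median-of-ratios scaling it held for 23 of the 47, beside 18.4% of all genes. The opposite, every oocyte pool above every CC pool, held for 0 of the 47 and for 22.9% of all genes. The median ratio was 3.1 over the 8 genes of complex III, 2.64 over 22 of complex IV and 3.81 over 17 of complex V. Subunit genes had a median ratio of 3.55 (36 genes), and the assembly factors of complex IV one of 1.59 (10 genes).

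**Figure D1:**
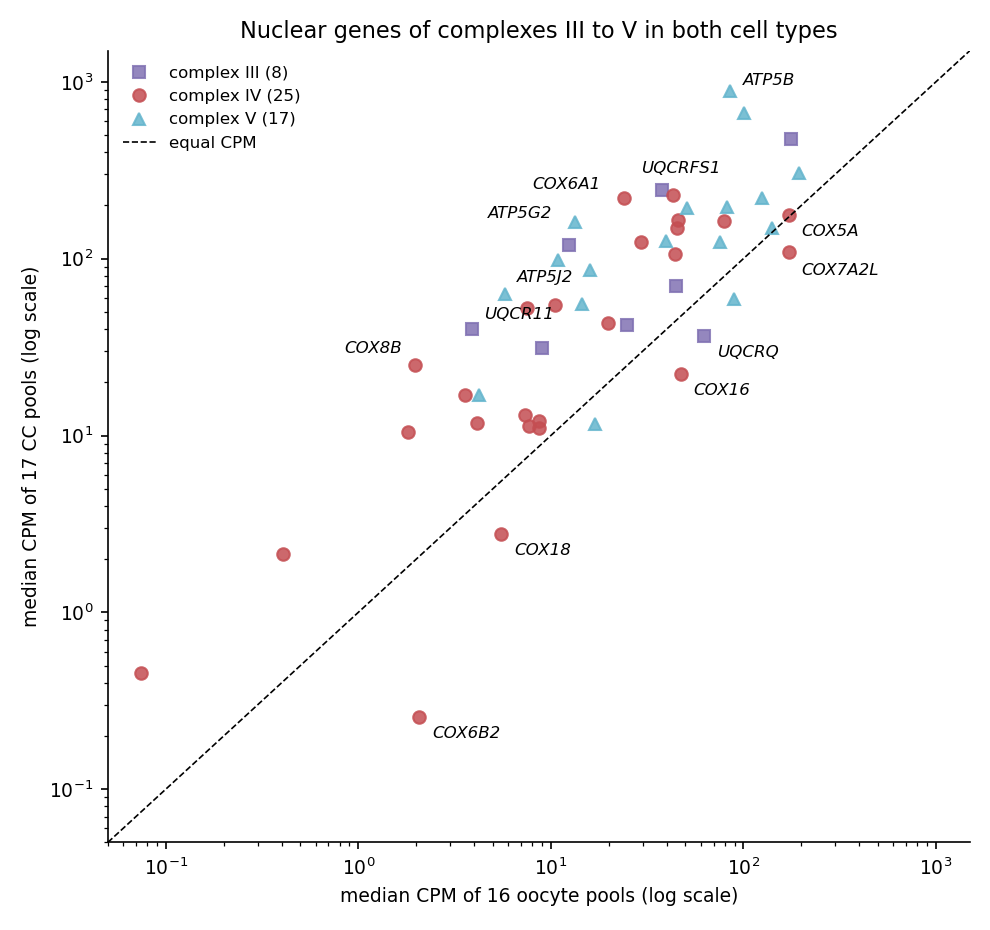
Median CPM in the 16 oocyte pools (x axis, log scale) against the 17 CC pools (y axis, log scale) for all genes with a median above 0 in both, with the dashed line at equal CPM and symbols by complex. Most points lie above the line, with COX8B, ATP5G2 and ATP5J2 among those farthest above it, and COX16, COX18, COX6B2 and UQCRQ lie under it.

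In complex III the catalytic Rieske iron-sulfur protein UQCRFS1 had 18.4 to 108 CPM in oocyte pools (median 37.9) and 167 to 296 CPM in CC pools (median 244.5). The small subunits UQCR10 and UQCR11 also stood higher in every CC pool, UQCR10 with medians of 12.5 CPM in oocytes and 119.9 in CC and UQCR11 with 3.89 and 39.9. The hinge protein UQCRH, which helps cytochrome c dock, was separated as well (116 to 225 CPM in oocytes and 263 to 671 in CC). UQCRQ, a small subunit on the ubiquinone side, was the exception of this complex, with a median of 62.7 CPM in oocytes and 36.4 in CC, and its pools overlapped.

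In complex IV COX6A1, the form of subunit 6A found in most tissues, had 9.24 to 122 CPM in oocytes and 172 to 289 in CC. COX6B1, which lies where complex IV forms a dimer, had 2.72 to 21.3 CPM in oocytes and 29.5 to 78.0 in CC. COX19, a copper-handling assembly protein, was the only assembly factor of complex IV with every CC pool above every oocyte pool, at 0.185 to 11.4 against 12.0 to 41.4 CPM. COX8B, the muscle-type form of subunit 8, had 0 to 4.59 CPM in oocyte pools (0 in 2 of them) and 18.4 to 39.9 in CC pools. It passed the filter through its CC values alone, which favored a higher value in CC but did not by itself fix the separation of pools. These genes therefore included both structural and assembly proteins, but other subunits lay close to equality: COX5A, a subunit on the matrix side, had medians of 172 CPM in oocytes and 177 in CC.

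The 6 tested genes with the higher median CPM in oocytes were COX16, COX18, COX7A2L, ATP5G1, ATP5S and UQCRQ, of which the first 3 serve assembly. COX18 was among the tested genes through its oocyte values alone, since it did not pass the filter in CC. COX16, needed to assemble the COX2 module, had a median of 47.3 CPM in oocytes and 22.2 in CC, and COX18, which inserts a part of COX2 into the membrane, had 5.54 and 2.76. COX7A2L, which joins complexes III and IV into supercomplexes, had medians of 172 CPM in oocytes and 109 in CC. ATP5S, also called coupling factor B, had 17 and 11.6 CPM. COX6B2, the testis form of subunit 6B, had 0.261 to 19.7 CPM in oocytes, highest in large replicate 6, and 0 to 1.56 CPM in CC, where 7 of 17 pools had no read and no pool more than 8. The pools of each of these genes overlapped between the cell types.

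In complex V the genes ATP5B, ATP5A1 and ATP5D of the catalytic head and central stalk stood higher in every CC pool than in any oocyte pool. ATP5B, the catalytic beta subunit, had 29.9 to 165 CPM in oocytes and 546 to 1159 in CC, and ATP5A1, the alpha subunit, had 76.1 to 207 and 401 to 852. ATP5D, the delta subunit of the central stalk, had medians of 10.8 and 98.8 CPM. The other central stalk genes overlapped, ATP5C1 (gamma) with 141 to 288 CPM in oocytes and 218 to 444 in CC and ATP5E (epsilon, ENSBTAG00000039208) with 3.4 to 72.5 and 63.3 to 137. ATP5J2 and ATP5L, small subunits in the membrane part, were separated in the same direction, ATP5J2 with medians of 5.75 and 63.2 CPM and ATP5L with 50.9 and 194. ATP5J, which couples the stalk to the membrane part, did not follow them, with medians of 140 CPM in oocytes and 148 in CC.

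The 3 genes for the c subunit of the ATP synthase rotor, whose mature proteins are the same, differed among themselves between the cell types. ATP5G1 had a median of 89.3 CPM in oocytes and 59.5 in CC. ATP5G2 had 13.4 and 161 CPM, and ATP5G3 had 39.9 and 125.7, with every CC pool above every oocyte pool for both. Among the genes for subunit 7A, the muscle form COX7A1 had medians of 4.12 CPM in oocytes and 11.8 in CC, and the widely expressed form COX7A2 had 45.2 and 149.7, with overlapping pools in each. COX8A, the other form of subunit 8, also overlapped, with medians of 7.69 and 11.3 CPM.

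**Figure D2:**
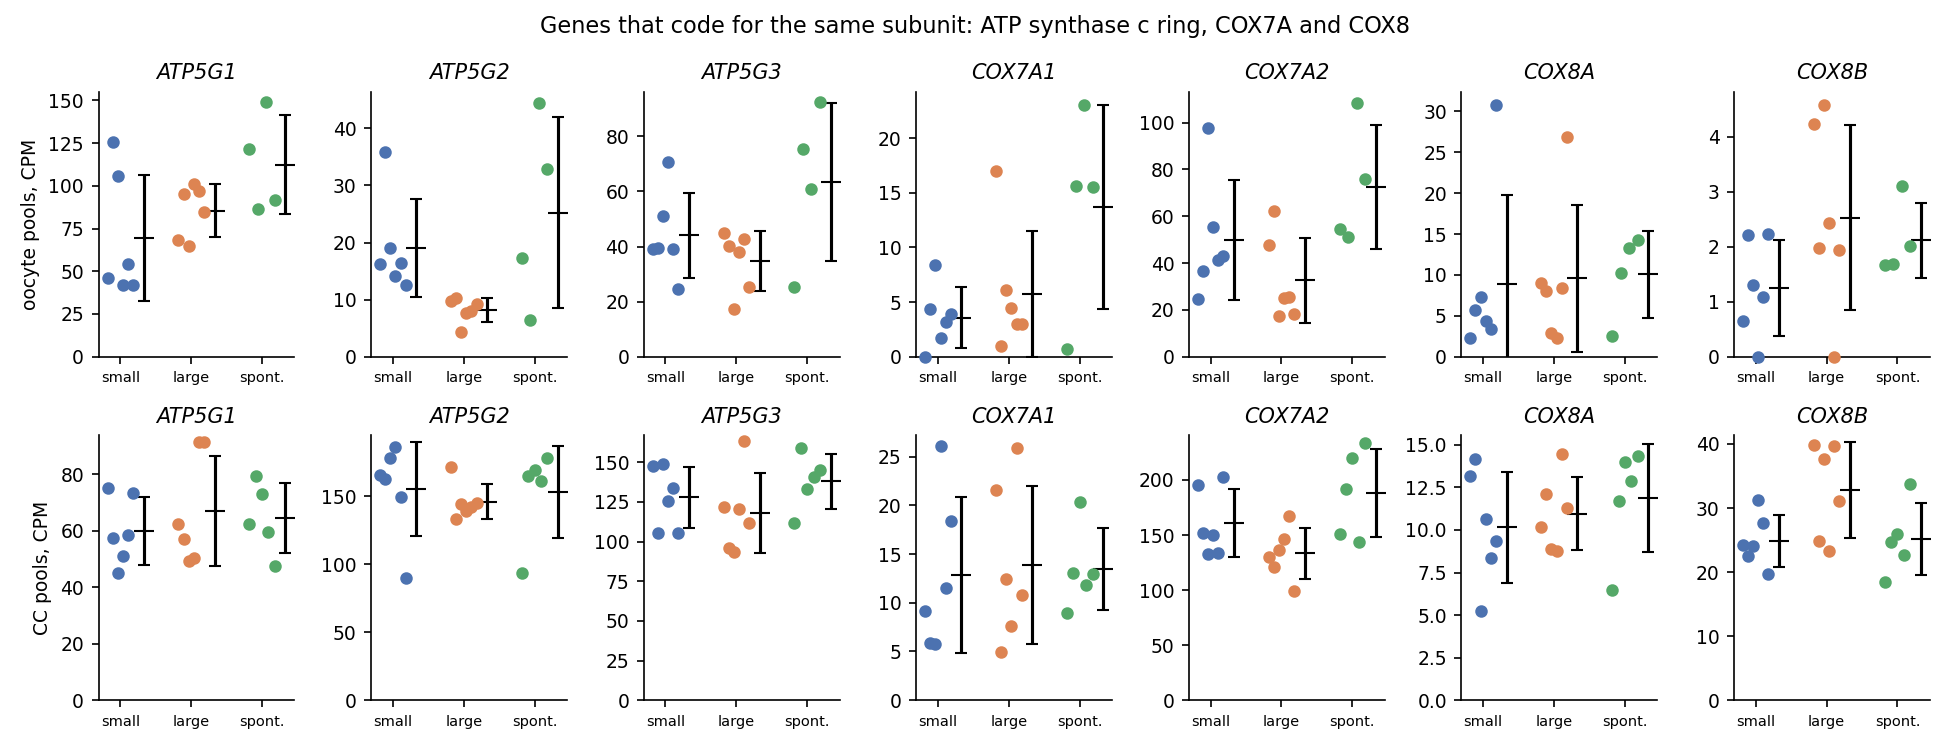
CPM per pool (y axes, from 0) in oocytes (top row) and CC (bottom row) by follicle class for the 3 genes of the ATP synthase c subunit and for COX7A1, COX7A2, COX8A and COX8B, with bars for the mean and SD. ATP5G1 lies at 41.8 to 149 CPM in oocytes and 45.0 to 91.5 in CC, whereas ATP5G2 lies at 4.35 to 44.4 and 89.6 to 186.

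Among replicate pools of one class the genes varied more in oocytes than in CC. The SD within classes on the log2(CPM + 1) scale had a median of 0.72 over the 46 genes in oocytes, beside 0.66 over all genes, and of 0.33 in CC, beside 0.48. In oocytes it ran from 0.27 for UQCRH to 1.38 for UQCR11, and in CC from 0.17 for UQCRB to 0.78 for COX15.

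The complexes were summed per pool to show how they moved together. In oocytes spontaneous replicate 3 had the highest sum for each complex, at 569 CPM for complex III, 1320 for complex IV and 1710 for complex V. The lowest were small replicate 1 for complex III (272), large replicate 3 for complex IV (537) and small replicate 6 for complex V (844). By class the sum of all 51 genes was 1804 to 3031 CPM in small, 1703 to 2607 in large and 2115 to 3599 in spontaneous oocyte pools, which overlapped. In CC it was 5684 to 6953, 4364 to 6978 and 5268 to 7287 CPM, where spontaneous replicate 1 was at 5268 and the other spontaneous pools at 7077 to 7287.

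**Figure D3:**
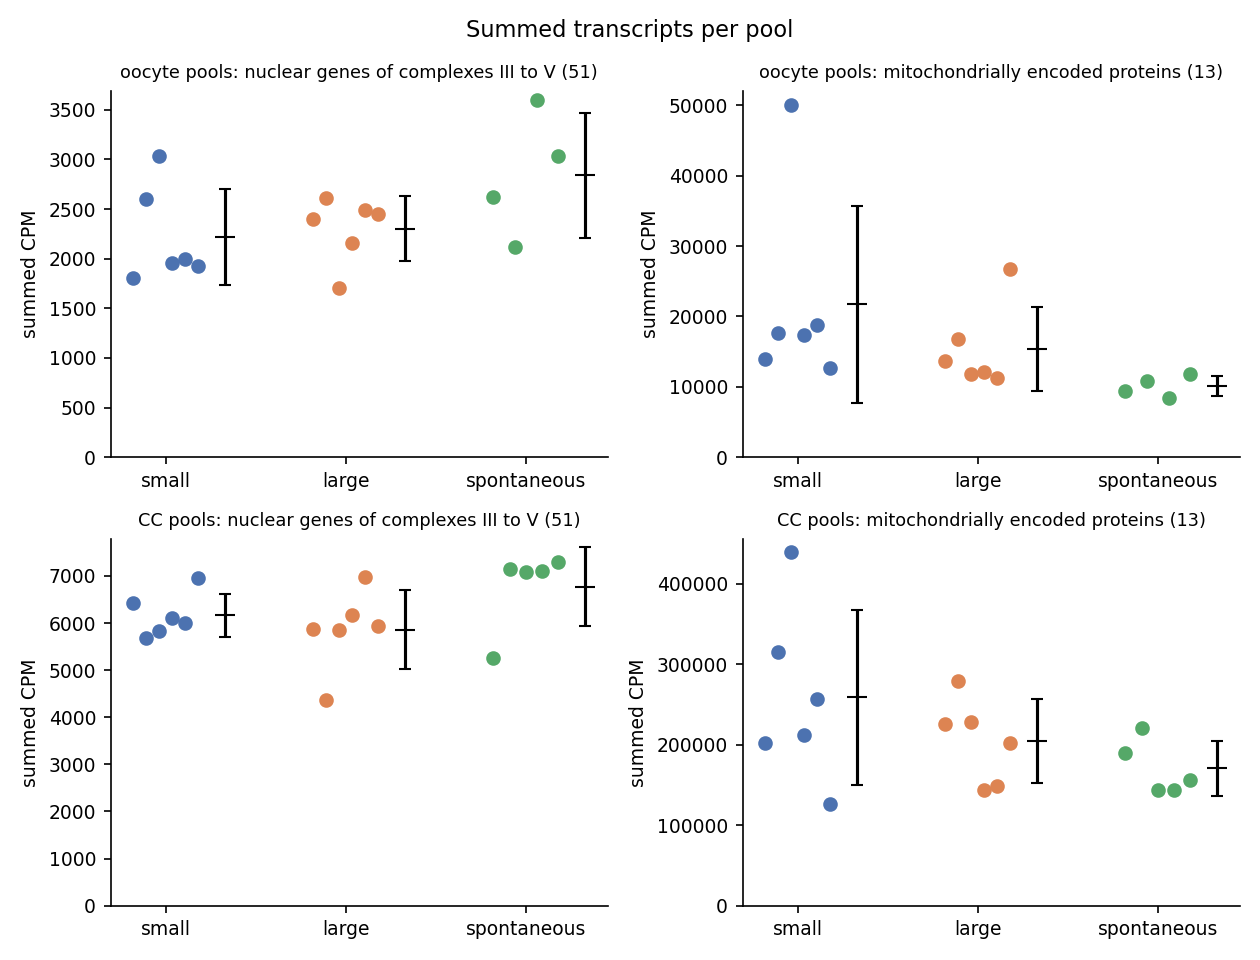
Summed CPM per pool (y axes, from 0) of the 51 nuclear genes (left) and the 13 mitochondrially encoded protein genes (right) in oocyte pools (top) and CC pools (bottom) by class, with bars for the mean and SD. The 4 spontaneous oocyte pools hold 8462 to 11830 CPM of mitochondrially encoded transcripts and 2115 to 3599 CPM of the nuclear ones.

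Classes were compared in pairs within a cell type with limma on log2(CPM + 1). A gene met the threshold at a nominal p of 0.01 or less, in comparisons with small oocyte pools also without small replicate 3. Adjusted p-values (Benjamini-Hochberg over all genes tested) were above 0.05 for every gene of complexes III to V in all 6 comparisons. Comparisons that name the same class share its pools and are not independent. The study's methods describe aspiration of the largest follicle of a cow, the labels do not name the cows of a pool, and p-values measure the spread between these pools.

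Between small and large oocyte pools 0 of 46 genes met the threshold, beside 0.655% of all 10076 genes, and 3 had a nominal p under 0.05, beside 4.11%. By edgeR's quasi-likelihood test 0 genes met the threshold and by DESeq2 1 did, beside 53 and 113 of all 10076 genes. With all pools alone COX5A met it (1 gene, beside 0.893%). COX5A had 89.6 to 180 CPM in small pools (median 139) and 167 to 268 CPM in large pools (median 187). Of the small pools 2 lay within the range of the large ones. The log2 fold change was 0.57 (SE 0.20, limma p = 0.00735, adjusted p = 0.997; exact permutation p = 0.0108, two-sided), and without small replicate 3 the p was 0.0118.

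ATP5G2 was the only gene of the 46 whose small and large oocyte pools did not overlap. It had 12.6 to 35.9 CPM in small pools (median 16.3) and 4.35 to 10.3 CPM in large pools (median 8.62), a separation with small higher that 0.129% of all genes showed. The difference of -1.08 on the log2 scale (SE 0.47) had a limma p of 0.0281 (adjusted p = 0.997). Its exact permutation p of 0.00217 was the smallest that 6 against 6 pools can give. The lack of overlap fixes that value, so it adds no separate support. The 4 spontaneous oocyte pools spanned both ranges, with 17.3, 6.34, 44.4 and 33 CPM. COX4I1, a subunit through which ATP regulates complex IV, had a mean of 53.5 ± 17.5 CPM (SD, n = 6) in small and 33.9 ± 22.7 CPM (SD, n = 6) in large pools, with overlap (limma p = 0.0335, exact permutation p = 0.132).

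Between small and spontaneous oocyte pools 2 of the 46 genes met the threshold, COX6A1 and COX5B, both higher in spontaneous pools, beside 0.774% of all genes in either direction and 0.526% higher in spontaneous. Both are nuclear subunits of complex IV. At a nominal p under 0.05 there were 6 genes, beside 4.51%, and 0 had pools without overlap, beside 0.476% with spontaneous and 0.427% with small pools higher.

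COX6A1 (ENSBTAG00000012788) had 16.7, 22.9, 71.1, 9.24, 14.4 and 16.3 CPM in small oocyte pools 1 to 6 and 60.4, 42.5, 122 and 64.5 CPM in spontaneous pools 1 to 4. Every spontaneous pool lay above 5 of the 6 small pools, and the exception was small replicate 3. Its log2 fold change was 1.71 (SE 0.47, limma p = 0.00122, adjusted p = 0.755; exact permutation p = 0.0381, two-sided). Without small replicate 3 it was 2.06, and without spontaneous replicate 3 it was 1.42 and no longer met the threshold.

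COX5B (ENSBTAG00000018542), the zinc-binding subunit on the matrix side, had 15.9, 28.4, 98.5, 27.8, 36.2 and 28 CPM in small and 61.6, 44.3, 118 and 182 CPM in spontaneous oocyte pools. Here too small replicate 3 alone reached into the spontaneous range. The log2 fold change was 1.38 (SE 0.43, limma p = 0.0034, adjusted p = 0.896; exact permutation p = 0.0762, two-sided). It fell below the threshold without spontaneous replicate 3 (1.24) and without spontaneous replicate 4 (1.03).

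Both genes stood 5.30 to 9.23 times higher in CC than in oocyte pools by their medians. The cumulus markers summed to 758 to 3991 CPM in small, 544 to 3731 CPM in large and 662 to 2608 CPM in spontaneous oocyte pools, with class medians of 1368, 1218 and 1576 CPM. Spontaneous replicate 3 had the highest COX6A1 (122 CPM) and, with 2608 CPM, the highest sum of cumulus markers among the spontaneous pools. Spontaneous replicate 4 had the highest COX5B (182 CPM) and, with 662 CPM, the lowest of those sums. Small replicate 3 was the highest of the small pools in COX6A1, COX5B and the cumulus markers. The part of cumulus transcripts in these values was not tested.

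Of all 46 genes, the 2 called included, 38 had the higher value in spontaneous than in small oocyte pools, beside 55% of all genes. The median log2 fold change of the 46 was 0.49, beside 0.05 over all genes tested. It was 0.69 for complex III, 0.51 for complex IV and 0.22 for complex V, and all 11 tested subunits of complex IV had positive values. ATP5G1, ATP5O (a stalk subunit) and UQCRQ were among those with a nominal p under 0.05, with log2 fold changes of 0.80, 0.70 and 0.74. ATP5B, with a log2 fold change of -0.52, and COX11, with -1.37, were the lowest and did not meet the threshold.

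Large against spontaneous oocyte pools again gave 2 of 46 genes, COX7A2 and COX6A1, both higher in spontaneous pools, beside 0.943% of all genes in either direction and 0.397% higher in spontaneous. COX7A2 (ENSBTAG00000005096), the widely expressed form of subunit 7A, had 47.6, 62.0, 17.3, 25.2, 25.6 and 18.1 CPM in large pools 1 to 6 and 54.4, 51.1, 108 and 75.9 CPM in spontaneous pools 1 to 4. Only large replicate 2 reached the spontaneous range. It differed by a log2 fold change of 1.22 (SE 0.38, limma p = 0.00371, adjusted p = 0.925; exact permutation p = 0.0381, two-sided). In small oocyte pools COX7A2 had 24.6 to 97.7 CPM, a range that overlapped both other classes, with a median (42.0) between theirs.

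COX6A1 had 55.5, 54.8, 18.7, 13.4, 25 and 22.1 CPM in large oocyte pools, so that large replicates 1 and 2 lay above the lowest spontaneous pool. The log2 fold change was 1.26 (SE 0.41, limma p = 0.00496, adjusted p = 0.954; exact permutation p = 0.0476, two-sided). Without spontaneous replicate 3, or without replicate 4, neither COX7A2 nor COX6A1 met the threshold. Leaving out spontaneous replicate 2 gave 6 genes, namely COX7A2, COX6A1, COX5B, COX4I1, COX6C and ATP5G2, beside 1.45% of all genes. Leaving out spontaneous replicate 1 gave 4, beside 1.15%. Without large replicate 3, or without large replicate 4, 1 gene was left, COX7A2, beside 0.811 and 0.924% of all genes. With the replicate number as a block 0 genes met it, beside 67 of all 10076.

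**Figure D4:**
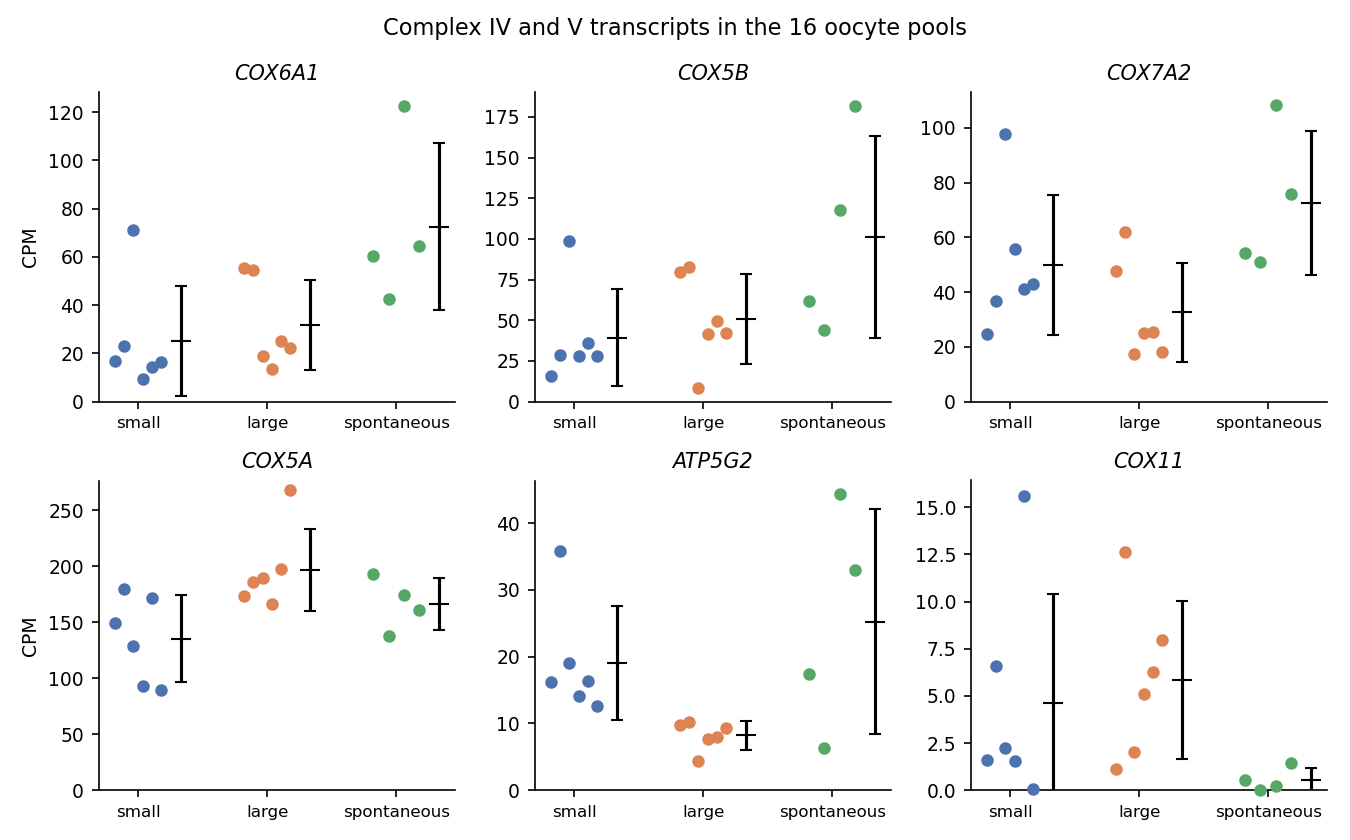
CPM per oocyte pool (y axes, from 0) by follicle class for COX6A1, COX5B, COX7A2, COX5A, ATP5G2 and COX11, with bars for the mean and SD. COX6A1 runs from 42.5 to 122 CPM in the spontaneous pools and 5 of the 6 small pools lie between 9.24 and 22.9, while COX11 stays at or below 1.45 CPM in the spontaneous pools.

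In the same comparison 37 of all 46 genes had the higher value in spontaneous pools, beside 50.9% of all genes, and 7 had a nominal p under 0.05, beside 4.87%, with a median log2 fold change of 0.46, beside 0.01 over all genes. It was 0.97 over the 11 tested subunits of complex IV and 0.38 over its 10 assembly factors. COX6B1 had 11.8, 11.5, 15.6 and 17.6 CPM in spontaneous pools, and large pools had 2.72 to 12.8 CPM (limma p = 0.0375, exact permutation p = 0.0286). COX17, the copper chaperone of complex IV, had a mean of 24.1 ± 11.7 CPM (SD, n = 4) in spontaneous and 10.2 ± 6.94 CPM (SD, n = 6) in large pools (limma p = 0.0413, exact permutation p = 0.0476).

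COX11, which delivers copper to COX1, lay the other way. It had 0.531, 0, 0.228 and 1.45 CPM in spontaneous oocyte pools and 1.11 to 12.6 CPM in large pools (median 5.69), and the ranges overlapped in a single large pool. Its log2 fold change was -1.96 (SE 0.75, limma p = 0.0141, adjusted p = 0.968; exact permutation p = 0.019, two-sided), which did not meet the threshold. In small oocyte pools COX11 ran from 0.0861 to 15.6 CPM. In CC it stood at 7.99 to 17 CPM in spontaneous pools and 5.56 to 10.6 CPM in small pools, with a log2 fold change of 0.63 (limma p = 0.0469, exact permutation p = 0.0346).

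By class means on the log2 scale, spontaneous pools were the highest for 33 of the 46 genes in oocytes, large for 8 and small for 5, beside 39.1, 33.2 and 27.7% of all genes. In CC the counts were 29, 3 and 14, beside 53.9, 27.1 and 19.1%. These counts are a description and rest on the same pools as the comparisons.

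**Figure D5:**
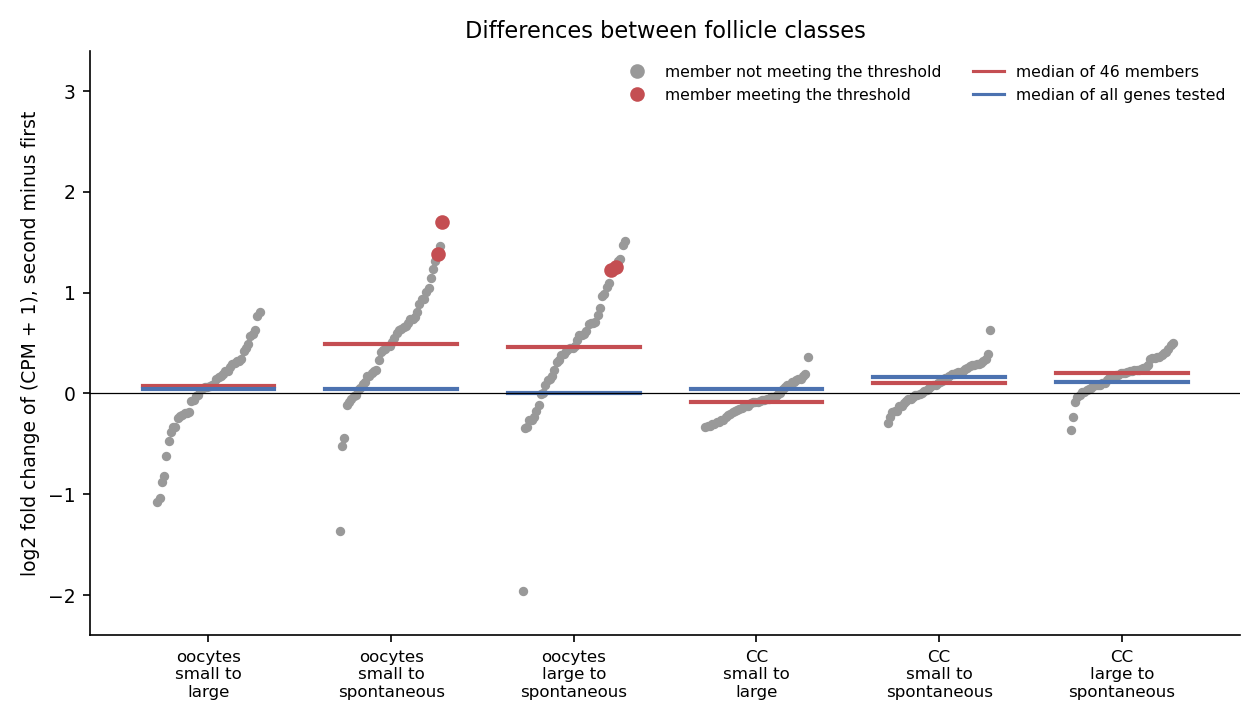
Log2 fold change of (CPM + 1), second class minus first (y axis), for the 46 tested genes in each of the 6 comparisons (x axis), sorted within each, with red dots for genes that met the threshold and lines for the median of the 46 genes (red) and of all genes tested (blue). In oocytes the red line lies at 0.49 and 0.46 against spontaneous pools, and in CC all 3 red lines lie between -0.09 and 0.20.

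In CC no gene met the threshold in any comparison by limma. Between small and large CC pools 0 of 46 did, beside 0.813% of all 9712 genes, and 0 had a nominal p under 0.05, beside 4%. Between small and spontaneous CC pools it was 0, beside 2.38%, with 2 genes (ATP5F1 and COX11) at a nominal p under 0.05, beside 8.55%. Between large and spontaneous CC pools it was 0, beside 1.66%, with 3 genes (ATP5F1, ATP5J and COX7A2) at a nominal p under 0.05, beside 7.07%. By edgeR's quasi-likelihood test and by DESeq2 the counts at the threshold in CC were also 0. Over the 3 comparisons these tests called 63 to 128 and 112 to 217 of all 9712 genes.

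ATP5F1, subunit b of the peripheral stalk, had 176 to 251 CPM in small, 137 to 234 in large and 274, 248, 224, 248 and 300.5 CPM in spontaneous CC pools. The spontaneous pools sat in the upper part of the range and overlapped both other classes. Its log2 fold change was 0.34 from small (SE 0.16, limma p = 0.0495, exact permutation p = 0.0303) and 0.41 from large (SE 0.16, limma p = 0.0195, exact permutation p = 0.00866). COX7A2 had 99.1 to 167 CPM in large and 151, 192, 220, 144 and 234 CPM in spontaneous CC pools, with a log2 fold change of 0.48 (SE 0.18, limma p = 0.0138, exact permutation p = 0.0303). ATP5J had 107 to 141 CPM in large pools, and in spontaneous pools 107 CPM in replicate 1 and 166 to 178 CPM in the others.

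Leaving out spontaneous CC replicate 1 moved the last comparison most. Without it 4 genes met the threshold between large and spontaneous CC pools, namely ATP5J, ATP5O, COX6B1 and COX7A2, with log2 fold changes of 0.49, 0.49, 0.61 and 0.55, beside 1.68% of all genes. Without large replicate 5 there were 2 (COX17 and COX7A2), beside 1.75%, and without spontaneous replicate 4 there was 1 (COX7A2), beside 0.912%. The summed cumulus markers of spontaneous replicate 1 were 28142 CPM, above the 15611 to 23579 CPM of the other spontaneous CC pools.

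The median log2 fold change of the 46 genes in CC was -0.09 from small to large (all genes 0.05), 0.11 from small to spontaneous (all genes 0.16) and 0.20 from large to spontaneous (all genes 0.11). Mitochondrially encoded transcripts took 126426 to 440157 CPM in small and 143284 to 221254 CPM in spontaneous CC pools. With median-of-ratios scaling the all-gene median from small to spontaneous moved from 0.16 to 0.01 and that of the 46 genes from 0.11 to -0.05, below the all-gene median under both. From small to large that scaling gave a median of -0.14 for the 46 genes (all genes -0.01), and from large to spontaneous 0.10 (all genes 0.01). Without the mitochondrially encoded genes in the total the medians were -0.20 (all genes -0.07) and 0.14 (all genes 0.06). Median-of-ratios scaling also moved the calls over all genes, split into higher and lower in spontaneous pools. From small to spontaneous CC pools they went from 221 and 10 to 78 and 48, and from large to spontaneous from 141 and 20 to 62 and 54. From small to large they went from 67 higher and 12 lower to 44 and 26 in CC, and from 45 and 21 to 39 and 31 in oocytes.

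The mitochondrially encoded partners of these complexes went the opposite way in oocytes, and in CC they were also lower in spontaneous pools. Of the 13 mitochondrial protein genes 9 fell at the threshold from small to spontaneous oocyte pools (12 with all pools alone), beside 0.248% of all genes lower in spontaneous pools, and their median log2 fold change was -0.94. The 13 moved together, from -1.07 to -0.81, so these are not independent calls. From large to spontaneous 5 fell, beside 0.546% of all genes, with a median of -0.53. COX1, the catalytic core of complex IV, had 1461 to 1835 CPM in spontaneous oocyte pools (median 1673) and 2320 to 8040 CPM in small ones (median 3240). Its log2 fold change was -1.07 (SE 0.20, limma adjusted p = 0.14). CYTB, the mitochondrially encoded core of complex III, had -1.07 (SE 0.29), and ATP6, the proton channel of complex V, had -0.88 (SE 0.24). Between small and large oocyte pools, and in the 3 CC comparisons, 0 of the 13 met the threshold. In each of these comparisons all 13 were still lower in the second class. Their median log2 fold change was -0.41 between small and large oocyte pools. In CC it was -0.31 (large minus small), -0.53 (spontaneous minus small, 3 genes at a nominal limma p under 0.05) and -0.24 (spontaneous minus large). The medians of the 46 nuclear genes in those CC comparisons were -0.09, 0.11 and 0.20. All 13 had a higher CC than oocyte median, by 8.74 times (ND1) to 24.7 times (COX1). Small replicate 3 and large replicate 6 had the highest cumulus marker sums of the oocyte pools (3991 and 3731 CPM). They also had the highest mitochondrial shares (5.0 and 2.68%), but large replicate 4, with 3198 CPM of the markers, had 1.20%. The part of cumulus transcripts in the oocyte values of these 13 genes was not tested.

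Other genes of these complexes that the naming rule left out were examined from lists. NDUFA4, which carries a complex I name but is a subunit of complex IV, rose from large to spontaneous oocyte pools, with at most 97.2 CPM in large and 86.6 to 146.5 CPM in spontaneous pools and a log2 fold change of 1.26 (SE 0.33, limma adjusted p = 0.847). It was the only call among 5 tested further subunits in oocytes, where 0.943% of all genes were called from large to spontaneous. Of the separate assembly factors, 6 of complex III, 10 of complex IV and 4 of complex V were tested in oocytes and 0 met the threshold in any comparison. In CC ATPAF1, which assembles the catalytic head of complex V, rose from small to spontaneous pools, with a log2 fold change of 1.08 (SE 0.28, limma adjusted p = 0.295), and was the only call among those factors. Among 10 regulators and 10 electron carrier genes 0 met the threshold in oocytes, and in CC TFB2M, a mitochondrial transcription factor, rose from large to spontaneous pools by 0.86 (SE 0.28, limma adjusted p = 0.567). Of the complex II genes 0 of 6 in oocytes and 0 of 5 in CC met it. Over all genes 0.655 to 0.943% met it in the oocyte comparisons and 0.813 to 2.38% in those of CC. The share was 2.38% in the comparison that called ATPAF1 and 1.66% in the one that called TFB2M. These listed genes were tested on CPM only, without the other scalings.

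Higher values in spontaneous oocyte pools were also found in other gene groups. From small to spontaneous oocyte pools 34 of 43 genes with NDUF symbols were higher, with a median log2 fold change of 0.39. These are named for complex I but include NDUFA4 of complex IV. The same held for 49 of 72 mitochondrial ribosomal protein genes, with 0.26, and 82 of 84 cytosolic ribosomal protein genes, with 0.45. From large to spontaneous the medians were 0.42, 0.25 and 0.35. Whether the genes of complexes III to V differed from those groups was not tested.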

How the data were processed

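Per the labels and the study's methods, trimmed reads were aligned (Hisat2, UMD3.1), featureCounts assigned them to Ensembl genes, and the authors deposited CPM for 33 pools. All columns were matched to pools by name. Whole reads were recovered from 100% of the CPM values (within 0.05 reads). No genome of that build was used here, so neither coordinates nor sequences are given.

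The genes and lists were chosen with earlier results of these data known. Genes joined by Ensembl identifier (15 lacked a symbol for CC) were tested with limma 3.58.1 (trend, two-sided, pseudocount 1) on all genes that reached 5 CPM in 4 oocyte or 5 CC pools or more. Exact permutation tests compared mean CPM. The study used edgeR and DESeq2 on counts. Here edgeR 4.0.16 and DESeq2 1.42.0 on recovered reads were alternatives, as were other scalings, filters, pseudocounts, fits and each pool left out. The code was tested on simulated data. Genes named by rule are those with a nominal p of 0.01 or less with all pools, the 2 with the smallest p in each comparison, the alternative forms of subunits and the 3 with the largest ratio of medians for each cell type. Others are examples named after their values were seen. The agreement of replicate pools was checked, and none was a repeated library.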

Additional observations from a re-analysis of the deposited data

Results flagged for a closer look

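Single pools stood far from the rest of their class in 13 of 120 groups examined over the 20 genes named by rule (10.8%), where chance alone flags about 1 group in 20. The groups are not independent, since genes share pools, and 4 of the 13 were 1 pool. Spontaneous CC replicate 1 was the lowest of 5 pools for ATP5G2 (93.6 CPM, others 161 to 178), ATP5J (107 CPM, others 166 to 178), COX6B1 (33 CPM, others 61.2 to 78.0) and COX8A (6.48 CPM, others 11.7 to 14.3). ATP5G2 was also lowest in small CC replicate 6 (89.6 CPM), highest in large CC replicate 1 (171 CPM) and lowest in large oocyte replicate 3 (4.35 CPM). Large CC replicate 5 was lowest for COX11 (2.27 CPM) and highest for COX6A1 (288.9 CPM, others 190 to 202). Among oocyte pools, large replicate 6 was highest for COX5A (267.5 CPM), large replicate 3 lowest for COX5B (8.32 CPM), large replicate 5 lowest for COX8B (0 CPM, which allows up to 3 reads) and spontaneous replicate 1 lowest for COX7A1 (0.730 CPM, others 15.5 to 23.1). The causes were not tested.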

How the results depend on the processing

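Over the 12 comparisons of named genes and 16 other results, 0 values changed sign while called. Among oocytes, the count from small to large was 1 in place of 0 without a filter and by DESeq2 (ATP5G2), beside 100 of 16078 and 113 of 10076 genes. It was 1 with all 3 classes in one fit and with the threshold on all pools only (COX5A), beside 66 and 90 of 10076. Leaving out a pool it was 0 to 1, beside 0.470 to 0.935% of all genes. From small to spontaneous it was 1 in place of 2 without a filter, beside 97 of 16078 genes. Leaving out a pool it was 0 to 4, beside 0.493 to 1.31% of all genes. It was 0 without spontaneous replicate 3 (0.493% of all genes), 4 without spontaneous replicate 2 (0.991%) and 1 without spontaneous replicate 4 (0.671%). From large to spontaneous it was 1 in place of 2 without a filter (COX11), beside 148 of 16078 genes. It was also 1 with one fit and by edgeR's quasi-likelihood test (COX7A2), beside 79 and 91 of 10076. On genes with a mean of at least 1 CPM it was 3 (COX11 added), beside 114 of 12065. By edgeR's likelihood ratio test and by DESeq2 it was 4 (COX7A2, COX6A1, ATP5G2 and COX11). These called 146 and 181 of all 10076 genes in place of 95. Leaving out a pool it was 0 to 6, beside 0.755 to 1.45% of all genes. With the replicate number as a block it was 0. Same-numbered pools of different classes had correlations of -0.19 to 0.224 in their deviations, so the numbers were not taken as pairs, and the block moved no other count. In CC the count from small to large was 1 without a filter (ATP5J), beside 121 of 16244 genes. Leaving out a pool it was 0 to 0, beside 0.538 to 1.17% of all genes. From large to spontaneous it was 0 to 4 leaving out a pool, beside 0.912 to 2.41%. The cause of these moves was not tested. With 5 CPM asked of every pool 26 genes passed in oocytes in place of 46. The genes with every CC pool above every oocyte pool numbered 23 with median-of-ratios scaling in place of 15, and 15 to 19 leaving out a pool. The median log2 fold change of the genes from small to spontaneous CC pools was -0.07 at its lowest, without mitochondrially encoded genes, and that from small to large oocyte pools was -0.02 to 0.22 leaving out a pool. From small to spontaneous oocyte pools it was 0.35 to 0.61 leaving out a pool, and 0.69 without small replicate 3 and spontaneous replicate 2 together, a pair chosen after its sums were seen. From large to spontaneous it was 0.32 to 0.61. Depth limits genes near 3 reads, such as COX6B2 in CC and COX11 in spontaneous oocyte pools, and 4 spontaneous oocyte pools limit the precision of every comparison with them.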
